A study of Rattus norvegicus with 12 samples.

Results

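The genes examined here encode the proteasome and the proteins that build or cap it, as measured in primary astrocytes cultured from the optic nerve head of the rat. Members were the genes whose symbol begins with Psma, Psmb, Psmc, Psmd, Psme, Psmf or Psmg and a digit, without the immunoproteasome genes Psmb8, Psmb9 and Psmb10. There were 43 of them among the 10261 genes with a tested probe set, and each was read from its brightest probe set by the mean over the 12 arrays. All 43 passed the filter on dim probe sets, which uses the mean over all arrays and no group. By function, 30 encode subunits of the 26S particle (7 of the alpha ring, 6 of the beta ring, 6 ATPases of the base, 3 other base subunits and 8 of the lid). A further 11 encode activators, an inhibitor or assembly chaperones, and 2, Psmc3ip and Psme3ip1, match the symbol pattern but are not known subunits.

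The cultures formed 4 groups, whose strain, genotype and age the labels do not state. In the first comparison cultures received epidermal growth factor (EGF), a growth factor that acts through the EGF receptor, for 4 h. They were set against control cultures from the same source. The second did the same at 12 h, with controls of its own. Each group held 3 arrays, 12 in all, and neither the EGF dose nor whether replicates were separate cultures is stated in the labels. P-values therefore measure the spread between these arrays, which may be technical. The sample titles give the groups, while the description field reads as control for every sample.

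The 26S proteasome is the machine that degrades most ubiquitin-tagged proteins in the cell. Its barrel-shaped core is made of stacked rings, in which the beta subunits Psmb5, Psmb6 and Psmb7 cut the polypeptide and the alpha subunits gate the entrance. A base of ATPases unfolds the substrate and feeds it into the core, and a lid removes the ubiquitin chain. Because the subunits are built into 1 particle in fixed proportions, cells can raise their genes together, and the transcription factor Nfe2l1, released from the endoplasmic reticulum with the help of Ngly1 and Ddi2, is known to do so when proteasome activity is short.

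Signals are the deposited array intensities on a linear scale. Changes are log2 fold changes of EGF against control on the scale of log2(signal + 24.4), given with the standard error (SE) of the fit, and a gene was called higher or lower at an adjusted p under 0.05 from limma, adjusted over all 18625 tested probe sets. The 2 replicate 3 arrays of 4 h differed from the other 10 in the hybridisation control signal (21217 and 23645 against 49.6 to 111). The ratio of 3' to 5' actin signal, which grows as labelled RNA is cut short at its 5' end, was 11.1 to 21.7 in 5 of the 12 h arrays. In the one other array of that time, EGF replicate 3, it was 1.24, where the 4 h arrays had 1.20 to 1.61. Counts of members at 12 h are therefore given with and without EGF replicate 3, as are the members and lists that it moved most, while other 12 h values are from all arrays. Its difference in RNA ends from the controls it is set against was not tested as a part of any result, and the effect within the other 5 arrays of that time is given as measured.

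Of the astrocyte markers, Vim (70137 ± 5739 signal units in the 12 h controls, SD, n = 3) and Gja1 (69969 ± 2531) were bright, while Gfap, Aqp4, Slc1a2 and Aldh1l1 were too dim to test. The astrocyte list as a whole summed to 147465 to 153856 in the 12 h controls and 138455 to 199325 with EGF, with 2 of 6 tested genes lower. Most of the sum in the 12 h controls was the signal of Vim and Gja1, so it says little of the other markers of the list. Genes of fibroblasts were bright as well: the summed signal of 7 such markers was 207644 to 248576 in the 12 h controls and 114508 to 183203 with EGF, with 5 of 7 lower. All 5 neuronal markers and 5 of 9 microglial markers, namely Ptprc, Itgam, C1qa, C1qb and Tyrobp, were dim. The summed microglial signal was 1044 to 1136 in the 12 h controls and 1715 to 2776 with EGF. The oligodendrocyte list summed to 9126 to 9665 and then 4565 to 5779, the Schwann cell list to 8780 to 10888 and then 6318 to 8137, and the endothelial list to 2392 to 3038 and then 1033 to 1509. At 4 h the microglial sum was lower with EGF, at 1890 to 2033 against 2321 to 2764 in the controls, and the Schwann cell sum higher, at 18855 to 19983 against 16253 to 18166, the reverse of 12 h for both. The fibroblast sum was 208682 to 224208 against 241654 to 273112 at that time, the oligodendrocyte sum 4207 to 4954 against 6502 to 7555, and the endothelial sum at most 1612 against at least 2554.5, all lower without overlap. The astrocyte sum overlapped at 4 h, at 131876 to 159438 against 125631 to 137902. Whether these shifts had a part in the results was not tested, and a change in the number of cells of a type cannot be told apart from a change in RNA per cell.

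After 4 h of EGF the 26S proteasome genes were near their control levels. Among the 43 members 2 were higher (Psmd5 and Psmd12), 1 was lower (Psme3ip1) and 40 were neither, against 11.4% higher and 16.5% lower of all tested probe sets. The median change was 0.03 over the members, 0.09 over the 30 subunits and -0.15 over all tested probe sets. In the fit without EGF replicate 3 of 12 h, 3 members were higher at 4 h, Psmd3 being the addition. In that fit 3 members were lower at 4 h, with Psmd10 and Psmg3 added. Without EGF replicate 1 of 12 h, 2 were lower at 4 h, with Psmg3 added. No share of all tested probe sets was taken at 4 h in these fits. After 12 h, 23 of 43 members were higher and none lower, against 15.3% higher and 20.8% lower of all tested probe sets. The 23 comprised 22 of the 30 subunits of the 26S particle and 1 of the 11 activators, inhibitor and chaperones, Psmd5. The median change was 0.60 over the 30 subunits, a 1.52-fold rise, 0.16 over the 11 accessory genes and -0.06 over all tested probe sets. At an unadjusted p under 0.05, 1 member was lower at 12 h, Psmf1.

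**Figure D1:**
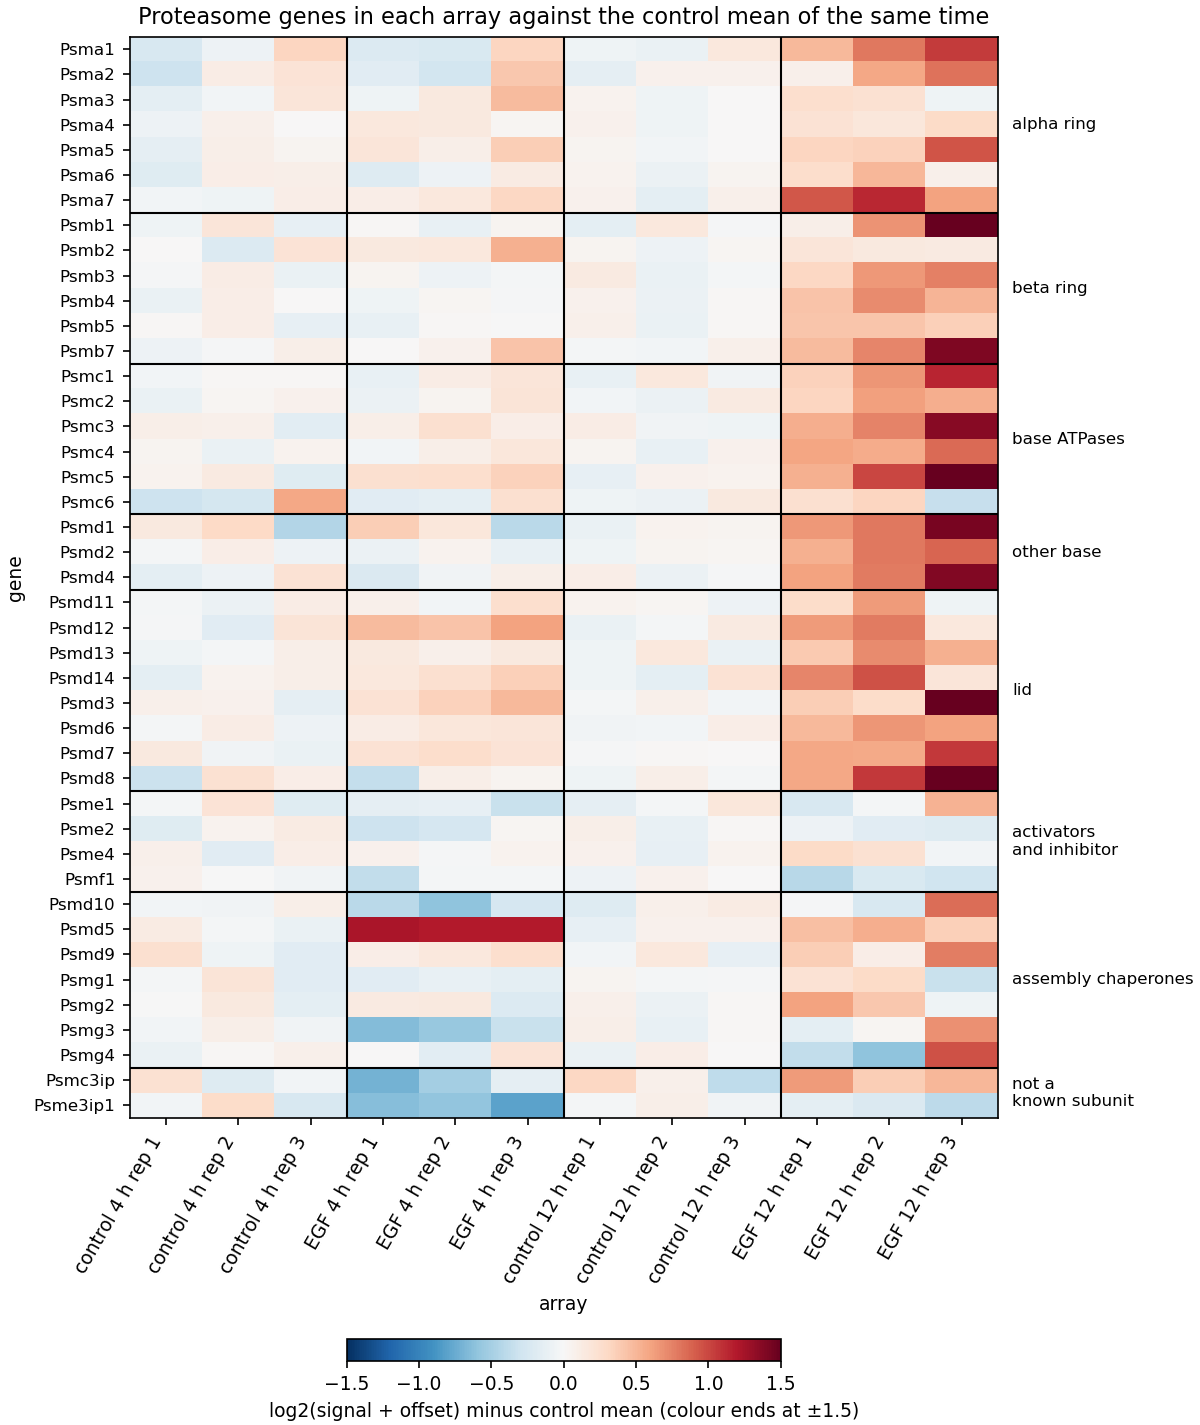
Each row is a member and each column an array. Colour gives log2(signal + 24.4) minus the control mean of the same time, with black lines between the classes and the groups. In the EGF columns of 12 h the 26S subunits are mostly red, with all 30 fold changes above 0, and in those of 4 h most are pale and the row of Psmd5 is red.

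Counted array by array, 25 of the 30 subunits had all 3 EGF arrays above all 3 controls at 12 h, where 19.7% of all tested probe sets did. At 4 h the count was 8 of 30, where 18.3% of all tested probe sets did. With EGF replicates 1 and 2 alone, 29 of 30 subunits lay above the 3 controls of 12 h, against 25.7% of all tested probe sets. Relative to the control mean, the median subunit stood 0.42 higher on the log2 scale in EGF replicate 1, 0.66 in replicate 2 and 0.78 in replicate 3, and between -0.05 and 0.02 in the 3 controls. In the fit without EGF replicate 3, 25 members were higher and 1 lower, with a background of 15.7% higher and 20.8% lower. Of the 23 genes higher with all arrays, 22 were again higher in it, Psmb1 being the exception.

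The alpha ring, which forms the outer rings of the core and its gate, had 3 of 7 genes higher at 12 h (Psma1, Psma5 and Psma7). Its largest change was in Psma7, with control signals of 11469, 9975 and 11636 and EGF signals of 21025, 24197 and 16674. All 3 EGF arrays lay above the controls, replicate 3 the least, and the log2 fold change was 0.89 ± 0.14 (adjusted p = 2.6e-04). At 4 h the same gene had 12719, 12504 and 13988 in the controls and 14018, 14535 and 16155 with EGF (0.19 ± 0.14, adjusted p = 0.356). Psma1 went from 4558, 4432 and 5318 to 6653, 8216 and 9856 at 12 h (0.77 ± 0.19, adjusted p = 0.00676), or 0.63 (adjusted p = 0.0151) without replicate 3. Psma5 went from 6756, 6383 and 6586 to 8193, 8328 and 12649 (0.53 ± 0.16, adjusted p = 0.0183), its replicate 3 standing well above the other EGF arrays, and without that array the change was 0.33 (adjusted p = 0.0355). Psma5 was no longer called without control replicate 2 or 3 of 12 h or with the times fitted separately, at adjusted p values up to 0.0592.

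The other alpha subunits moved less or less evenly. Psma2 had EGF signals of 8439, 11939 and 14068 against 7292, 8376 and 8384 (0.49 ± 0.21, adjusted p = 0.0889), so that its EGF arrays lay above the controls but spread widely, and gave 0.33 (adjusted p = 0.233) without replicate 3. Psma4 gave 0.23 ± 0.10 (adjusted p = 0.109) and Psma3 0.14 ± 0.15 (adjusted p = 0.509). Psma6 gave 0.28 ± 0.14 (adjusted p = 0.127) with all arrays and 0.38 (adjusted p = 0.0335) without EGF replicate 3. At 4 h no alpha gene was called, also at an unadjusted p under 0.05. Psma5 then had 11275, 13123 and 12705 in the controls and 14038, 13113 and 16009 with EGF, and Psma3 had 4721, 5064 and 5943 and then 4992, 5755 and 7243, with overlap in both genes.

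In the beta ring, which holds the cutting sites, 5 of 6 genes were higher at 12 h. Psmb5, whose product cuts after hydrophobic residues, had controls of 19131, 16940 and 18444 and EGF signals of 24199, 24314 and 23170 (0.40 ± 0.11, adjusted p = 0.0105). The groups did not overlap and replicate 3 was close to the other EGF arrays, but the call was lost without control replicate 2 of 12 h (adjusted p = 0.0548). Psmb7, whose product cuts after basic residues, went from 6543, 6505 and 7042 to 9335, 11096 and 17720 (0.87 ± 0.20, adjusted p = 0.00353). Without replicate 3, the highest of its EGF arrays, the change was 0.60 (adjusted p = 0.00258). No single-symbol probe set names Psmb6, so it has no value here. At 4 h no beta gene was called, also at an unadjusted p under 0.05. At that time the controls of Psmb5 had 14689, 15582 and 13382 and the EGF arrays 13478, 14688 and 14472 (-0.03 ± 0.11, adjusted p = 0.861). Psmb7 had 10464, 10926 and 11707 and then 11056, 11549 and 14869 (0.17 ± 0.20, adjusted p = 0.574).

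Of the structural beta subunits, Psmb4 rose from 21741, 19591 and 21093 to 28023, 34006 and 29490 at 12 h (0.55 ± 0.11, adjusted p = 0.00191). Psmb3 rose from 13551, 11540 and 12097 to 15402, 19357 and 20822 (0.57 ± 0.13, adjusted p = 0.00375). In both genes the EGF arrays were clear of the controls. Psmb1 differed in kind, with controls of 6221, 7660 and 6812 and EGF signals of 7315, 10934 and 24536. Its call (0.86 ± 0.31, adjusted p = 0.0411) rests on replicate 3, since replicate 1 lay inside the controls and the change without replicate 3 was 0.38 (adjusted p = 0.0748). In all it was lost under 17 of the 23 alternatives. Psmb2 was not called at either time: its signals were 14690, 13551 and 14589 and then 16243, 15855 and 15660 at 12 h (0.16 ± 0.14, adjusted p = 0.391), and 14703, 12669 and 16902 and then 16282, 16351 and 21170 at 4 h (0.28 ± 0.14, adjusted p = 0.146).

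**Figure D2:**
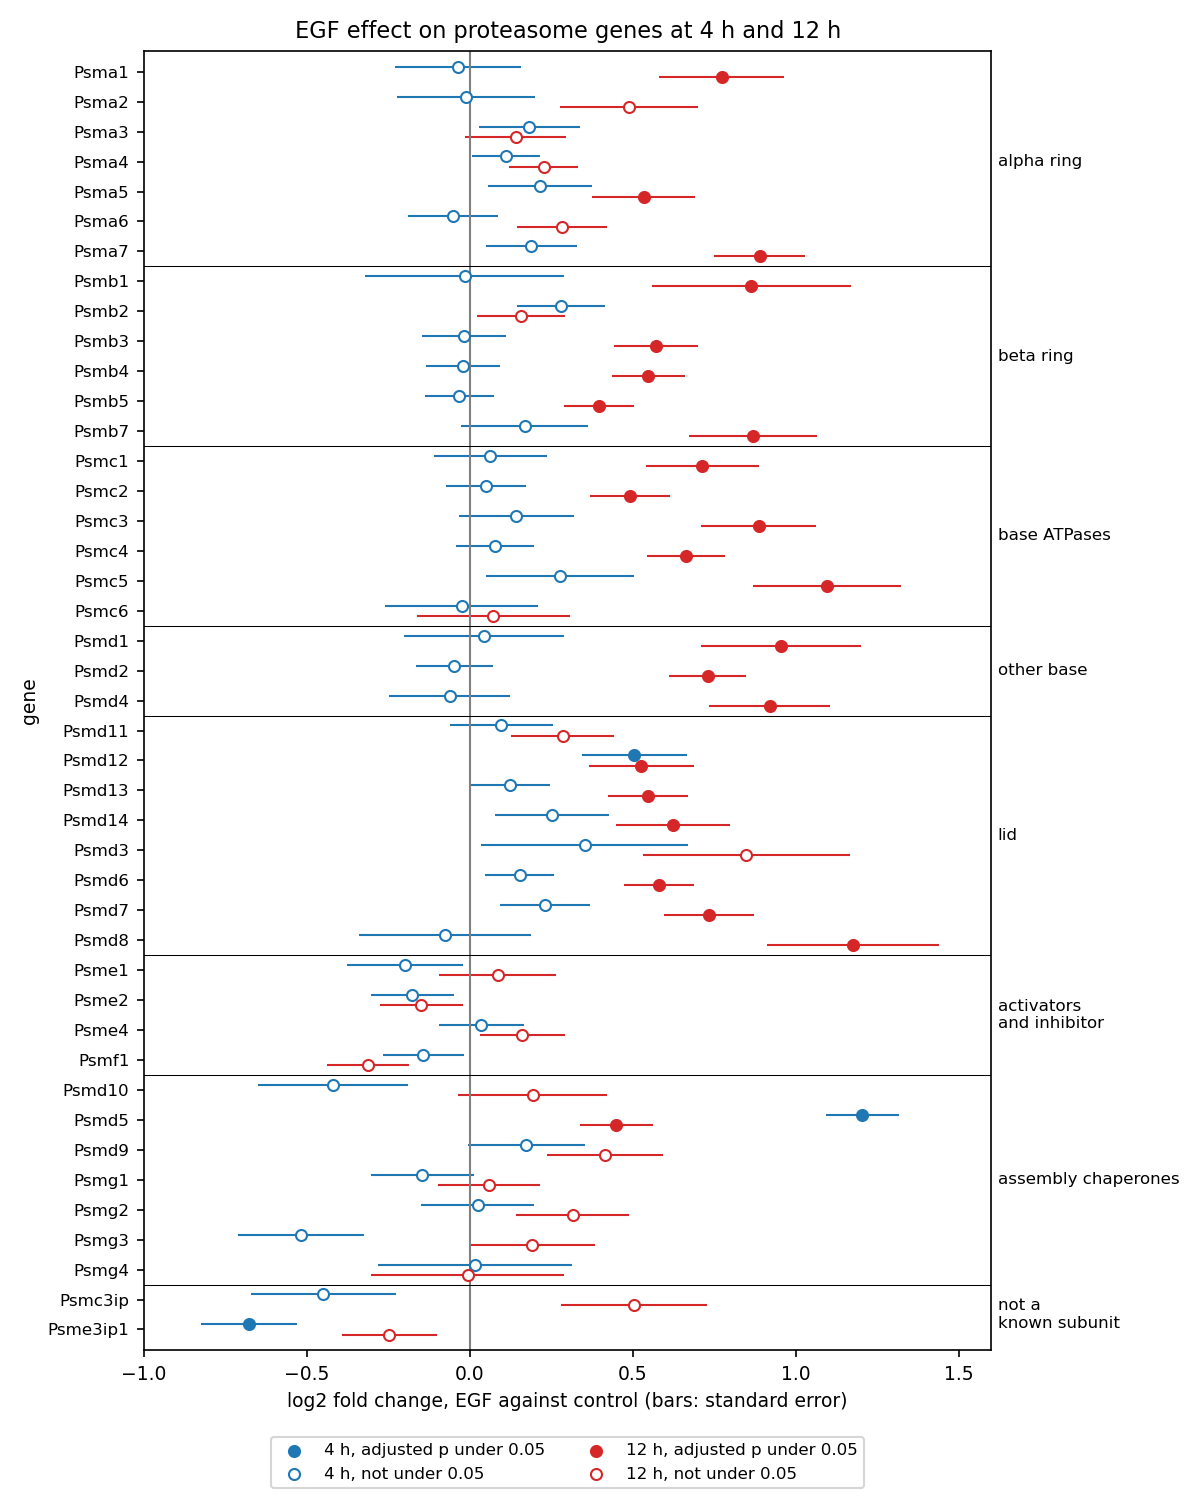
Points give the log2 fold change of EGF against control for each member at 4 h (blue) and 12 h (red), with bars for the standard error and filled points where the adjusted p was under 0.05. At 12 h, 22 of the 30 subunits of the alpha and beta rings, base and lid are filled and right of 0, and at 4 h only Psmd12 and Psmd5 are filled on that side, with Psme3ip1 filled on the left.

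In the base, 8 of 9 genes were higher at 12 h, with a median change of 0.73. Among the ATPases, which thread the substrate into the core, Psmc4 went from 6752, 6080 and 6884 to 9864, 9669 and 11809 (0.66 ± 0.12, adjusted p = 7.5e-04). Psmc3 went from 5999, 5386 and 5347 to 8149, 9359 and 14386 (0.89 ± 0.18, adjusted p = 0.00149), or 0.65 (adjusted p = 5.9e-04) without replicate 3. Psmc5 went from 3103, 3534 and 3482 to 4880, 6776 and 11395 (1.10 ± 0.23, adjusted p = 0.00206), and without replicate 3, by far its brightest array, the change was 0.77 (adjusted p = 7.3e-04). In all of these the EGF arrays stood above every control. Psmc1 (0.71 ± 0.17, adjusted p = 0.00578) and Psmc2 (0.49 ± 0.12, adjusted p = 0.00672) were higher as well. Psmc6 was the ATPase not called, with controls of 7822, 7666 and 9048 and EGF signals of 9642, 10179 and 6417, replicate 3 lying below the controls and the others above.

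At 4 h no base gene was called on its brightest probe set, also at an unadjusted p under 0.05. The ATPase with the smallest p was Psmc5, at 5987, 6306 and 5061 in the controls and 6786, 6851 and 7324 with EGF (0.28 ± 0.23, adjusted p = 0.408). Psmc3 had 10427, 10397 and 8805 and then 10486, 11609 and 10563, and Psmc4 had 10228, 9313 and 10368 and then 9711, 10624 and 11228. The EGF arrays of Psmc5 and Psmc3 lay just above their controls, while those of Psmc4 overlapped theirs.

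The non-ATPase subunits of the base were higher in 3 of 3 cases at 12 h. Psmd2, a scaffold on which shuttle proteins dock, went from 10113, 10893 and 10768 to 15302, 18268 and 19432 (0.73 ± 0.12, adjusted p = 3.3e-04). Psmd1, the other large scaffold, went from 2430, 2698 and 2677 to 4089, 4514 and 7002 (0.95 ± 0.25, adjusted p = 0.00805), or 0.72 (adjusted p = 0.0193) without replicate 3. Psmd4, a ubiquitin receptor of the particle, went from 2530, 2220 and 2323 to 3576, 4050 and 6190 (0.92 ± 0.19, adjusted p = 0.00172), or 0.69 (adjusted p = 0.00135) without it. Every EGF array was above every control in these genes, and replicate 3 was the brightest. At 4 h Psmd2 had 13433, 14770 and 13048 and then 12907, 14244 and 12756, Psmd1 had 3897, 4356 and 2585 and then 4559, 3970 and 2660, and Psmd4 had 4842, 5065 and 6232 and then 4589, 5134 and 5702. In each of them the 4 h groups overlapped, and both replicate 3 arrays of Psmd1 were the lowest of their group.

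In the lid, which takes the ubiquitin chain off the substrate, 6 of 8 genes were higher at 12 h. Psmd6 went from 10134, 10204 and 11260 to 14708, 16607 and 15986 (0.58 ± 0.11, adjusted p = 8.6e-04). Psmd7, the partner of the deubiquitinating subunit, went from 4854, 4944 and 4904 to 7344, 7265 and 10217 (0.73 ± 0.14, adjusted p = 0.00102). Psmd13 went from 4387, 5099 and 4284 to 6028, 7504 and 6633 (0.55 ± 0.12, adjusted p = 0.00335). With all arrays, the largest change of any member at 12 h was that of Psmd8, from 2370, 2627 and 2422 to 3694, 5161 and 9236 (1.17 ± 0.26, adjusted p = 0.00348), or 0.82 (adjusted p = 0.00288) without replicate 3, where Psma7 (1.03) and Psmd14 (0.84) had larger ones. In each of these 4 genes the groups were apart.

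Psmd14, the deubiquitinating enzyme itself, was called at 12 h (0.62 ± 0.18, adjusted p = 0.0134) although its groups overlapped: controls had 10943, 10291 and 13253 and EGF arrays 19066, 22102 and 12990. Here replicate 3 lay within the controls, and without it the change was 0.84 (adjusted p = 1.5e-04), while without EGF replicate 2, without control replicate 2 or with separate fits the call was lost, at adjusted p values up to 0.0602. Psmd3 showed the opposite order, with controls of 1134, 1228 and 1125 and EGF signals of 1502, 1410 and 4418 (0.85 ± 0.32, adjusted p = 0.0515), and 0.32 (adjusted p = 0.0774) without replicate 3. Psmd11 gave 0.28 ± 0.16 (adjusted p = 0.178) with all arrays and 0.46 (adjusted p = 0.0127) without it.

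Psmd12, another structural lid subunit, was the 1 subunit of the particle called at 4 h. Its controls then had 4728, 4234 and 5473 and its EGF arrays 6682, 6467 and 7279 (0.50 ± 0.16, adjusted p = 0.0323), all above the controls. The call was lost without an intensity trend in the fit (adjusted p = 0.0582) and when any 1 of the EGF arrays, control replicate 1 or control replicate 2 of 4 h was left out, at adjusted p values up to 0.127. At 12 h it went from 4820, 5055 and 5666 to 8084, 8896 and 5762 (0.53 ± 0.16, adjusted p = 0.0213), a change of nearly the same size, and the difference between the times was 0.02 ± 0.23 (adjusted p = 0.963). The 12 h call was lost without EGF replicate 1 or 2, without control replicate 1 or 2 or with separate fits, at adjusted p values up to 0.0894. In the lid at 4 h, Psmd7 had 7744, 6758 and 6514 and then 8125, 8413 and 8048, and Psmd14 had 10456, 12078 and 12391 and then 12965, 13712 and 14881. Neither was called (adjusted p of 0.245 and 0.322), though their EGF arrays were above all controls. With the array set as a block, Psmb2, Psmd3 and Psmd7 were also higher at 4 h and Psmd10 and Psmg3 also lower, against 16.7% higher and 26.6% lower of all tested probe sets in that fit.

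**Figure D3:**
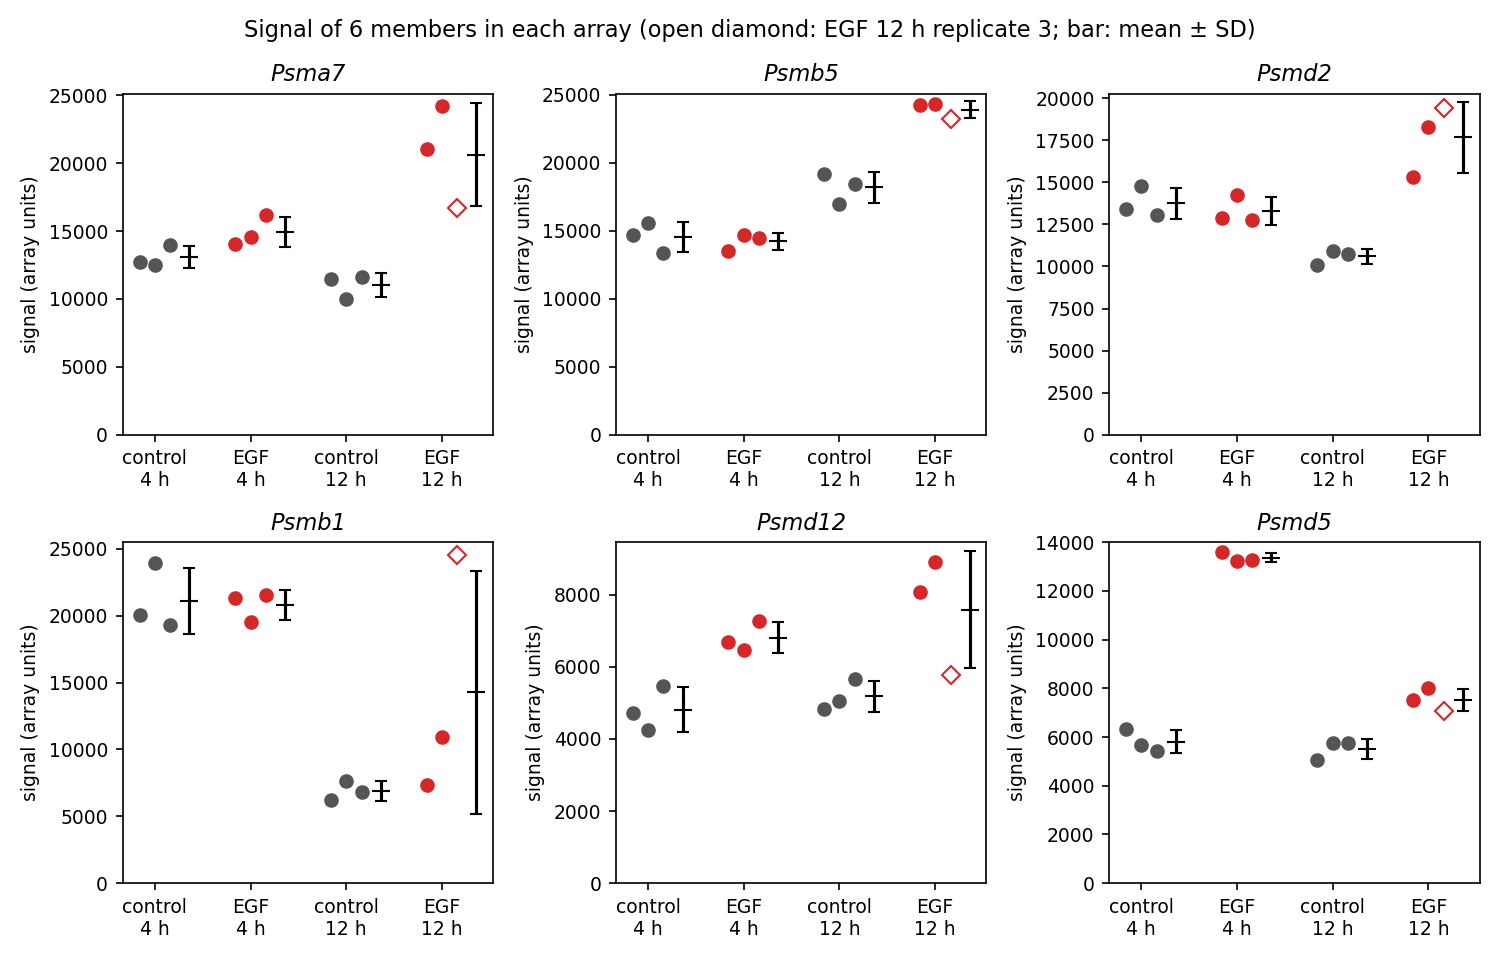
Each panel gives the signal of 1 gene in every array, grey for control and red for EGF, with the mean ± SD of the 3 arrays beside the points and an open diamond for EGF replicate 3 of 12 h. Psmd2 and Psmb5 have EGF arrays of 12 h clear of the controls, the diamond of Psmb1 stands at 24536 far above replicates 1 and 2, that of Psmd12 at 5762 near the controls, and Psmd5 is highest at 4 h.

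Promoter sequences of the members are of interest because 22 subunit genes rose together. RefSeq promoter windows (build GRCr8, 250 bases before to 50 after the start site that the table uses) were found by symbol for 39 of the 43 members and 26 of the 30 subunits. Psma7, Psmd6, Psmd12 and Psmd14 are not in that table. The windows were searched on both strands for TGACNNNGC, the core of the antioxidant response element that Nfe2l1 and Nfe2l2 bind, for CCAAT, the box bound by the Nfy complex, and for GGGCGG, the GC box of Sp factors, where matches may overlap each other. TGACNNNGC was found in 19.2% of the 26 subunit windows, in 11.1% of the 18 windows of subunits higher at 12 h and in 12.1% of all 33469 windows. CCAAT was found in 53.8%, 55.6% and 37.5% of these, and GGGCGG in 69.2%, 66.7% and 33.1%. For the 11 accessory genes the shares were 18.2%, 36.4% and 81.8%. The 250 bases before the start site are shown for 4 genes higher at 12 h, 2 from the beta ring and 2 from the base, to show what differs between genes that changed alike. Psmb5 and Psmd1 are the only 2 of the 18 windows of subunits higher at 12 h with TGACNNNGC. The 4 shown thus hold it more often than the 18 do. Capitals mark the matches, and each sequence reads 5′ to 3′ on the strand of its gene. Psmb5 lies at chr15:32047380-32047629 (minus strand), Psmb3 at chr10:83193537-83193786 (plus strand), Psmd1 at chr9:94157721-94157970 (plus strand) and Psmd2 at chr11:93763389-93763638 (minus strand).
Psmb5: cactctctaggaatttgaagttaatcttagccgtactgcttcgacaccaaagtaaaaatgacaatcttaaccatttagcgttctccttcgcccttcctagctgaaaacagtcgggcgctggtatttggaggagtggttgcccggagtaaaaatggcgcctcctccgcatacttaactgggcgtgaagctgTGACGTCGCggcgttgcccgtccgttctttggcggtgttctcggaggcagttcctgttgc
Psmb3: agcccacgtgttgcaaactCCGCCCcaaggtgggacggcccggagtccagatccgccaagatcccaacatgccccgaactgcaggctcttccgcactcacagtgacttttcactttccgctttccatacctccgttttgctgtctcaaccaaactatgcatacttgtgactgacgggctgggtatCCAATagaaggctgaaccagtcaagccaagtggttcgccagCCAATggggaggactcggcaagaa
Psmd1: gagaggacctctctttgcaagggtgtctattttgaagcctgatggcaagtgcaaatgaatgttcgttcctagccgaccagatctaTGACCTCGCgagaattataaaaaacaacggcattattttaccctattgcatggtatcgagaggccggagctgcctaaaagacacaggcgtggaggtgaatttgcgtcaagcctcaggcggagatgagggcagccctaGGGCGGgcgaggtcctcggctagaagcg
Psmd2: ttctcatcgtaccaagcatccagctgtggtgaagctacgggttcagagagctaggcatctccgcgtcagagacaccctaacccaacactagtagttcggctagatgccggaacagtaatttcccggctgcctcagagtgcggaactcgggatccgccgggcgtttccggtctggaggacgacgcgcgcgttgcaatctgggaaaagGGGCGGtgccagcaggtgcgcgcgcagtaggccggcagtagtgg
Psmb5 holds TGACGTCGC at bases -60 to -52 from the start site and neither of the other motifs. Psmb3 has CCAAT at -65 to -61 and at -24 to -20 and a GC box at -231 to -226. Psmd1 has TGACCTCGC at -165 to -157, a GC box at -28 to -23 and, beyond the stretch shown, TGACTGAGC at bases 22 to 30 after the start site, and Psmd2 has a GC box at -44 to -39. A match is a description of the letters, not a site shown to be bound.

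Accessory genes were mostly not called. Among the activators, the 4 genes at 12 h had changes of -0.31 to 0.16, with none called and 1, Psmf1, lower at an unadjusted p under 0.05. Psmf1, which encodes an inhibitor of the core in vitro, had controls of 5098, 5616 and 5388 and EGF signals of 4017, 4567 and 4369 at 12 h (-0.31 ± 0.12, adjusted p = 0.0659), all below the controls. At 4 h it had 6070, 5769 and 5577 and then 4482, 5699 and 5676, with overlap. Psme1 and Psme2, which form the cap induced by interferon, gave 0.09 ± 0.18 (adjusted p = 0.743) and -0.15 ± 0.13 (adjusted p = 0.389) at 12 h. Psme2 had 9451, 8249 and 8978 and then 8405, 7877 and 7741 at that time, and 9012, 10584 and 11154 and then 8244, 8565 and 10420 at 4 h. Psme1 had 17561, 20663 and 15684 and then 16258, 16372 and 14123 at 4 h. Psme4, an ATP-independent cap, had 4728, 4163 and 4703 and then 5542, 5313 and 4399 at 12 h (0.16 ± 0.13, adjusted p = 0.362). Apart from Psmf1 at 12 h, the groups in these genes overlapped.

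Psmd5, a chaperone that holds base ATPases during assembly, had the strongest 4 h response of any member. Its controls had 6323, 5654 and 5421 and its EGF arrays 13578, 13233 and 13275, a 2.30-fold rise (1.20 ± 0.11, adjusted p = 4.4e-06). The 12 h rise was smaller, from 5040, 5736 and 5747 to 7499, 8002 and 7075 (0.45 ± 0.11, adjusted p = 0.00683), and the difference between the times was itself called (-0.75 ± 0.16, adjusted p = 0.00847). At both times the groups were apart. Of the other base chaperones, Psmd10 had 2856, 2826 and 3123 and then 2211, 1922 and 2457 at 4 h (-0.42 ± 0.23, adjusted p = 0.199), with the EGF arrays all lower. Psmd9 had 1457, 1677 and 1377 and then 1946, 1610 and 2574 at 12 h (0.41 ± 0.18, adjusted p = 0.0863), with overlap.

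None of the 4 chaperones of core assembly, Psmg1 to Psmg4, was called at either time with all arrays, and at an unadjusted p under 0.05 Psmg3 alone was lower at 4 h. It had 2268, 2477 and 2250 and then 1478, 1558 and 1840 (-0.52 ± 0.19, adjusted p = 0.0603), its EGF arrays all below the controls. Psmg2 at 12 h had 3770, 3344 and 3604 and then 5453, 4731 and 3404 (0.32 ± 0.17, adjusted p = 0.177). Psmg4 had 1534, 1764 and 1653 and then 1266, 1080 and 3211 (-0.01 ± 0.30, adjusted p = 0.987). Replicate 3 stood against the others in both, and without it Psmg2 was higher (0.51, adjusted p = 0.0123) and Psmg4 lower (-0.49, adjusted p = 0.0157). Psmg1 gave 0.06 ± 0.16 (adjusted p = 0.80) at 12 h.

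The 2 genes that share the symbol pattern without being known subunits had changes of their own. Psme3ip1, named for an interaction with an activator, was lower at 4 h, from 2714, 3407 and 2377 to 1790, 1846 and 1600 (-0.68 ± 0.15, adjusted p = 0.00369). At 12 h it gave -0.25 ± 0.15 (adjusted p = 0.207). Psmc3ip, a meiotic recombination factor, gave -0.45 ± 0.22 (adjusted p = 0.156) at 4 h and 0.50 ± 0.22 (adjusted p = 0.095) at 12 h.

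The change in the EGF effect from 4 h to 12 h was tested directly, as the 12 h effect minus the 4 h effect. It was called in 7 members, with 6 above 0 and 1 below, against 5.45% and 6.11% of all tested probe sets. Those above 0 were Psmd8 (1.25 ± 0.37, adjusted p = 0.0456), Psmd4 (0.98 ± 0.26, adjusted p = 0.0288), Psmd2 (0.78 ± 0.17, adjusted p = 0.00958), Psma7 (0.70 ± 0.20, adjusted p = 0.0359), Psmc4 (0.59 ± 0.17, adjusted p = 0.0399) and Psmb4 (0.57 ± 0.16, adjusted p = 0.0346), and the 1 below was Psmd5. Over all 43 members the median difference was 0.43, against 0.05 for all tested probe sets. Leaving out 1 array at a time gave 2 to 15 such members: 15 without EGF replicate 1 of 12 h, 4 without its replicate 2, and 2 without any 1 control of 12 h, without EGF replicate 1 or 2 of 4 h or without control replicate 2 or 3 of 4 h. Psmd2 and Psmd5 were called in each of those fits, and the others lost the call in some, Psma7 with the replicate number as a block too (adjusted p = 0.0603), as did Psmb4 (adjusted p = 0.0629). For most subunits a rise called at 12 h and not at 4 h is thus not shown to differ between the times. In this difference, time cannot be told apart from anything else that set the 4 h and 12 h arrays apart. The array sets were themselves defined partly by time. No share of all tested probe sets was taken for the fits with 1 array left out.

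EGF replicate 3 of 12 h often stood apart from the other EGF arrays of that time. It lay above both other EGF arrays in 17 of the 30 subunits and below both in 9. Relative to the mean of replicates 1 and 2 it was 3.03-fold in Psmd3, 2.69-fold in Psmb1, 2.09-fold in Psmd8 and 1.96-fold in Psmc5, and 0.631-fold in Psmd14 and 0.647-fold in Psmc6. Its GAPDH 3' to 5' ratio was 1.19, against 6.69 to 8.44 in the other 12 h arrays and 0.933 to 1.07 at 4 h. In the controls, which had no EGF, 15 of the 30 subunits were lower and 1, Psmb5, higher at 12 h than at 4 h, against 21.7% lower and 23.8% higher of all tested probe sets. Psmb1, at 20058, 23902 and 19298 in the 4 h controls and 6221, 7660 and 6812 in those of 12 h, was the most reduced (-1.61 ± 0.31, adjusted p = 0.00115). Across the 30 subunits, the log2 excess of replicate 3 over the other EGF arrays and the log2 difference of the 12 h from the 4 h controls had a Pearson r of -0.856 and a Spearman rho of -0.855. These are measures across genes, which are not independent replicates, and no array enters both. Some subunits did not follow this tendency. Psmb4 was lower in the 12 h than in the 4 h controls (-0.45 ± 0.11, adjusted p = 0.00561), and its replicate 3 was 0.951-fold of the others. Psma7 (-0.25 ± 0.14, adjusted p = 0.166) and Psma3 (-0.29 ± 0.15, adjusted p = 0.14) were below 0 between the controls but not called. Their replicate 3 was 0.737-fold and 0.81-fold of the others. The part of the RNA ends in this was not tested.

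**Figure D4:**
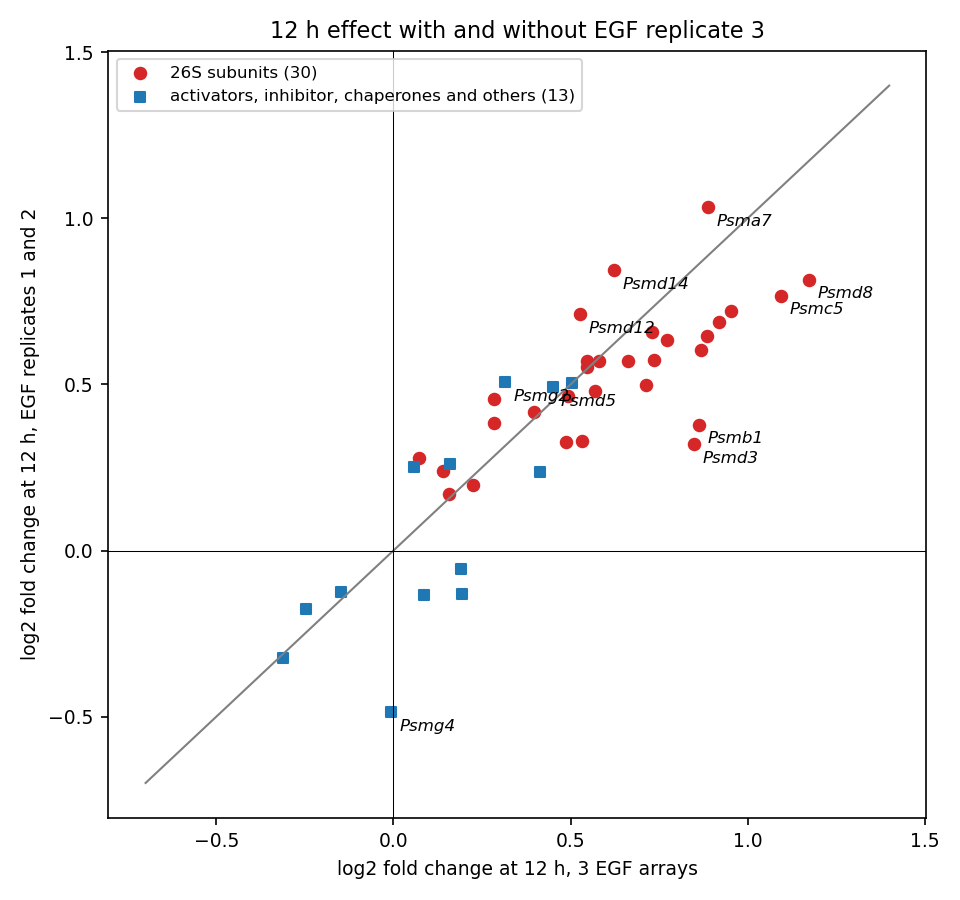
Each point is a member, with its 12 h log2 fold change from all 3 EGF arrays on the horizontal axis and from EGF replicates 1 and 2 on the vertical axis; the grey line marks equal values. All 30 subunits (red) lie above 0 on both axes, Psmd8, Psmc5, Psmb1 and Psmd3 fall below the line, Psmd14 and Psma7 lie above it, and Psmg4 moves from near 0 to -0.49.

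Within the 5 arrays of 12 h with like RNA ends, the median change of the 30 subunits was 0.56, against 0.60 with replicate 3, with 23 of 30 higher, from 0.17 in Psmb2 to 1.03 in Psma7. By class, 4 of 7 alpha genes, 4 of 6 beta genes, 8 of 9 base genes and 7 of 8 lid genes were higher there. Among called subunits not yet given this way, Psmc1 went from 0.71 to 0.50 (adjusted p = 0.00804), Psmd7 from 0.73 to 0.57 (adjusted p = 6.6e-04) and Psmd12 from 0.53 up to 0.71 (adjusted p = 5.1e-04). Psmc6 gave 0.28 there (adjusted p = 0.34) and the chaperone Psmd9 0.24 (adjusted p = 0.262). Psme1, Psmd10 and Psmg3, not called in either fit, had values of -0.13, -0.13 and -0.06 there and above 0 with all arrays. Genes called without replicate 3 but not with it were Psma6, Psmd11 and Psmg2, which were higher, and Psmg4, which was lower.

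Some members had more than 1 probe set. In all, 57 single-symbol probe sets named members, and 9 genes had several. The probe sets used for Psmd14 and Psmd7 gave smaller changes at 12 h than a dimmer probe set of each gene (1.28 ± 0.22, adjusted p = 4.4e-04, and 1.31 ± 0.22, adjusted p = 4.2e-04), and another, dimmer one for Psmd14 gave 0.23 ± 0.38 (adjusted p = 0.669). Psmd11 gave 0.43 ± 0.16 (adjusted p = 0.0534) on its second. In Psme4 the probe sets disagreed, with 0.53 ± 0.30 (adjusted p = 0.179) and -0.60 ± 0.15 (adjusted p = 0.00657) beside the 0.16 given above. Psmc6 was not called on any of its 3 probe sets. Its dimmest one had all EGF arrays above the controls at 4 h (0.51 ± 0.22, unadjusted p = 0.035, adjusted p = 0.0994). At 12 h that probe set gave -0.23 ± 0.22 (adjusted p = 0.429).

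Genes around the particle were read from lists of the same pathway. Pomp, the factor that matures the core, rose at 12 h from 10638, 9759 and 12294 to 23141, 22614 and 25224 (1.12 ± 0.13, adjusted p = 1.7e-05) and its groups were far apart. It was 1 of 4 measured subunits and assembly factors outside the symbol pattern to be called. The others gave 1.16 ± 0.75 for Akirin2 (adjusted p = 0.246), 0.93 ± 0.47 for Adrm1 (adjusted p = 0.141) and 0.89 ± 0.34 for Sem1 (adjusted p = 0.0522), and without replicate 3 the change of Akirin2 was -0.09 and that of Sem1 was 0.32 (adjusted p = 0.0457). The median of the 4 was 1.02 with all arrays and 0.32 without replicate 3.

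The immunoproteasome genes, whose products replace the catalytic beta subunits under interferon, went the other way. Psmb9 fell at 12 h from 1828, 2029 and 1750 to 690, 979 and 1514 (-0.87 ± 0.22, adjusted p = 0.00656), and Psmb8 from 1729, 1994 and 1636 to 1139, 1404 and 1349 (-0.45 ± 0.17, adjusted p = 0.0495). Psmb10 had 1432, 1351 and 1437 and then 847, 958 and 2380 (-0.17 ± 0.29, adjusted p = 0.68), and was lower without replicate 3 (-0.63, adjusted p = 0.00369). At 4 h the changes were -0.46 ± 0.22 for Psmb9 (adjusted p = 0.138), -0.13 ± 0.17 for Psmb8 (adjusted p = 0.623) and -0.17 ± 0.29 for Psmb10 (adjusted p = 0.702). Of the 15 measured interferon response genes, which include Psmb8 and Psmb9, 7 were lower at 12 h, 10 without replicate 3, and 6 at 4 h. Among all tested probe sets, 20.8% were lower at 12 h with or without replicate 3, and 16.5% at 4 h. The summed signal of the 15 genes was 89471 to 98591 in the 12 h controls and 71625 to 96842 with EGF.

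**Figure D5:**
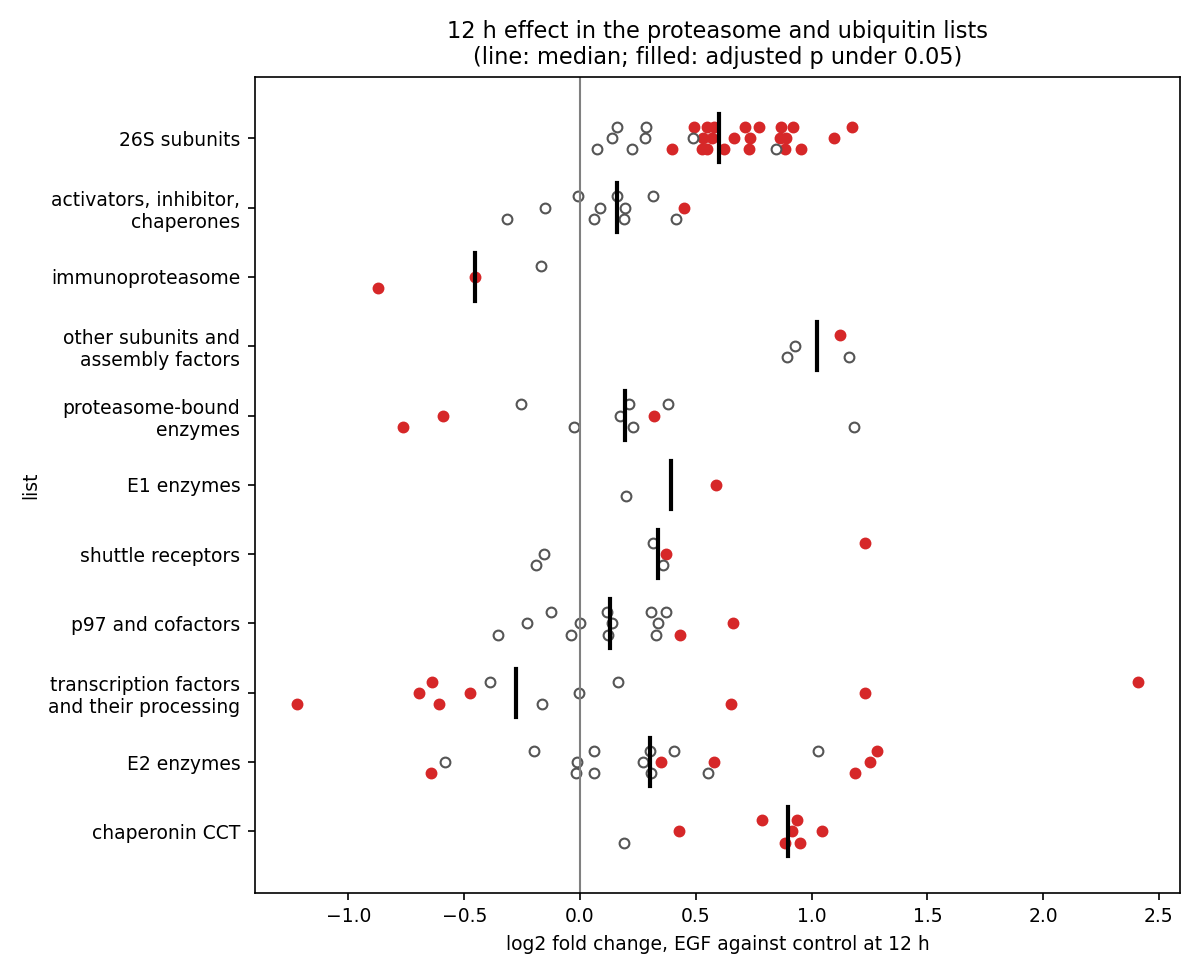
Each point is a tested gene, placed by its 12 h log2 fold change, in rows for the 26S subunits, the accessory members and the lists of the ubiquitin pathway; black lines are medians and red points have an adjusted p under 0.05. The medians of the immunoproteasome (-0.45) and the transcription factors (-0.28) lie left of 0, and those of all other rows lie right of it. Among the latter are the 26S subunits (0.60), the chaperonin (0.90) and the other subunits and assembly factors (1.02).

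Upstream of the particle, the list of transcription factors of proteasome genes and their processing had 3 of 12 tested genes higher and 5 lower at 12 h, and 4 higher and 2 lower at 4 h. Without replicate 3 the 12 h counts were 3 and 4, Keap1 being lost (adjusted p = 0.0519). Over all tested probe sets, 15.3% were higher and 20.8% lower at 12 h, and 11.4% and 16.5% at 4 h. Without replicate 3 the 12 h shares were 15.7% and 20.8%. Nfe2l1 itself was not called at 4 h (-0.42 ± 0.25, adjusted p = 0.236) or 12 h (-0.16 ± 0.25, adjusted p = 0.639). Ddi2, the protease that cuts it, was higher at both times (0.90 ± 0.20, adjusted p = 0.00403, and 1.23 ± 0.20, adjusted p = 2.9e-04), while Ngly1, which removes its sugars, was lower at both (-1.27 ± 0.19, adjusted p = 3.0e-04, and -1.22 ± 0.19, adjusted p = 2.8e-04). The small Maf partner Maff rose most, by 1.71 ± 0.20 at 4 h (adjusted p = 3.3e-05) and 2.41 ± 0.20 at 12 h (adjusted p = 9.2e-07). Nfya, a CCAAT box factor, was higher at 4 h (0.67 ± 0.15, adjusted p = 0.0046) and lower at 12 h (-0.64 ± 0.15, adjusted p = 0.00444). Nfe2l2, the antioxidant response factor, was lower at 12 h (-0.61 ± 0.13, adjusted p = 0.0031). These are levels of transcripts, and cleavage or activity of the factors was not measured.

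Among enzymes that attach ubiquitin or carry its substrates, the changes went both ways. Of 18 tested E2 enzymes 5 were higher and 1 lower at 12 h, and 3 higher and 1 lower at 4 h. Without replicate 3, 6 were higher and 2 lower at 12 h, with Ube2l3 (0.37, adjusted p = 0.0352) and Ube2h (-0.89, adjusted p = 1.4e-04) added. The shares of all tested probe sets were 15.3% higher and 20.8% lower at 12 h, and 11.4% and 16.5% at 4 h. Without replicate 3 those of 12 h were 15.7% and 20.8%. Ube2g2, an E2 of the endoplasmic reticulum, rose at both times (1.22 ± 0.17, adjusted p = 1.8e-04, and 1.28 ± 0.17, adjusted p = 7.8e-05), and Ube2m, the E2 of Nedd8, rose at 12 h (1.19 ± 0.26, adjusted p = 0.00285). Ube2h was lower at 4 h (-0.88 ± 0.22, adjusted p = 0.00837). Uba1, the main E1, was higher at 12 h (0.59 ± 0.21, adjusted p = 0.0397) but not without replicate 3 (0.32, adjusted p = 0.114), and was 1 of 2 E1 genes tested.

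Of 6 tested shuttle receptors 2 were higher at 12 h, Ddi2 and Rad23b (0.37 ± 0.13, adjusted p = 0.0401), and 1 was higher and 1 lower at 4 h. Without replicate 3 the count was again 2, with Rad23b lost (adjusted p = 0.0539) and Ubqln1 gained (0.38, adjusted p = 0.0489). Ubqln2 was the one lower at 4 h (-0.55 ± 0.17, adjusted p = 0.0261). The p97 unfoldase list had 2 of 14 genes higher at both times, Nploc4 (0.66 ± 0.12 at 12 h, adjusted p = 0.00104) and Ube4b (0.43 ± 0.12, adjusted p = 0.0148), while Vcp itself gave 0.12 ± 0.15 (adjusted p = 0.555). Without replicate 3, Ufd1 was higher too at 12 h (0.35, adjusted p = 0.0187). The p97 counts of 2 of 14 were near the shares of all tested probe sets, of which 15.3% were higher at 12 h and 11.4% at 4 h. Of 10 enzymes and adaptors bound to the proteasome, 1 was higher at 12 h, the deubiquitinase Usp14 (0.32 ± 0.12, adjusted p = 0.0453), and 2 were lower, Fbxo7 (-0.76 ± 0.15, adjusted p = 0.00134) and Ecpas (-0.59 ± 0.15, adjusted p = 0.0079). Without replicate 3, 3 of the 10 were higher at 12 h, with Txnl1 (0.45, adjusted p = 0.0133) and Zfand5 (0.30, adjusted p = 0.0415) added. At 4 h 2 of the 10 were higher, Zfand5 (0.64 ± 0.13, adjusted p = 0.00212) and Zfand2a (0.54 ± 0.17, adjusted p = 0.0315). With all arrays, the 12 h counts of the 10 were also near the shares of all tested probe sets, of which 20.8% were lower. The share lower at 4 h was 16.5%, and that higher at 12 h without replicate 3 was 15.7%.

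The cytosolic chaperonin CCT, another large complex of fixed proportions, had 7 of 8 genes higher at 12 h and 4 of 8 at 4 h, with median changes of 0.90 and 0.33. Of all tested probe sets, 15.3% were higher at 12 h and 11.4% at 4 h. Cct7 gave 1.04 ± 0.13 (adjusted p = 4.8e-05), Cct6a 0.94 ± 0.12 (adjusted p = 5.0e-05) and Tcp1 0.95 ± 0.13 (adjusted p = 6.6e-05) at 12 h. Without replicate 3, 7 of 8 were again higher. Cct4 was the one not called (0.19 ± 0.17, adjusted p = 0.398).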

How the data were processed

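RNA of primary astrocyte cultures was measured on 12 Affymetrix arrays of 1 colour. Per the submitters' processing notes, the authors used MAS5, whose version is not given in the sources used here, and they deposited 1 linear intensity for every probe set and array. Precision is limited by the number of arrays (median SE 0.23). Groups came from the sample titles.

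Of 31099 probe sets, 57 control ones and those with a mean signal under the 40th percentile (215) were left out, which left 18625. Signals were raised by 24.4 (their 10th percentile) and taken to log2. The fit used limma 3.58.1 (R 4.3.3) on the means of the 4 groups (empirical Bayes with intensity trend, 8 residual degrees of freedom), with two-sided tests and Benjamini-Hochberg adjustment over all tested probe sets at 0.05. The fit was also run on simulated signals with known changes and noise independent between arrays. Those signals held no array sets and no differences in RNA ends, so the run does not bear on these. Genes were named from the platform annotation, where 20832 probe sets carried 1 symbol, 436 several and 9831 none. Figures were drawn with matplotlib 3.10.9.

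The members and lists were chosen with earlier results of these data known. Values in every array are given for the catalytic subunits, for up to 3 members of each class with the smallest p at each time, for members whose effect differed between the times and for any called against its class; of the other lists up to 4 genes at each time are named. Same-numbered EGF and control arrays correlated, after group means were taken out, at 0.121, 0.15 and 0.376 at 4 h. At 12 h the values were 0.0826, -0.111 and -0.103, so the rule that every pair exceed 0.1 was met at 4 h only. Both replicate 3 arrays of 4 h shared the high hybridisation control signal, so pairing and array set cannot be told apart in them. Arrays of unlike number reached at most 0.142 for replicate 1 of 4 h, above its own pair, 0.138 for replicate 2 and -0.203 for replicate 3. Array sets were told apart after seeing the data, by time, by an actin ratio above 5 and by hybridisation controls with a mean above 1000. The alternatives were 23 other fits: another offset, filters, scalings and models, blocks, and arrays left out.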

Additional observations from a re-analysis of the deposited data

Results flagged for a closer look

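In 7 members the EGF effect at 12 h differed from that at 4 h by a test of the difference itself in limma. There were 6 above 0 and 1 below, against 5.45% and 6.11% of all tested probe sets. With 1 array left out 2 to 15 members were called, and of these 7 only Psmd2 and Psmd5 kept the call in each such fit. The 12 h minus 4 h difference in log2 fold change was 1.25 for Psmd8 (adjusted p = 0.0456), 0.98 for Psmd4 (adjusted p = 0.0288), 0.78 for Psmd2 (adjusted p = 0.00958), 0.70 for Psma7 (adjusted p = 0.0359), 0.59 for Psmc4 (adjusted p = 0.0399) and 0.57 for Psmb4 (adjusted p = 0.0346). For Psmd5, the base assembly chaperone that rose 2.30-fold at 4 h, it was -0.75 (adjusted p = 0.00847). Each time had controls of its own, and the array sets were defined partly by time. Time thus cannot be told apart here from anything else that set the 4 h and 12 h arrays apart.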

How the results depend on the processing

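The 12 h count of 23 higher members stayed within 1.5 times under all 23 alternatives, and 18 of the 23 genes were higher in every one. Many alternatives could not move the 12 h fold changes, only their p-values. These were the fits with 4 h arrays left out, other filters, no trend, the replicate block or separate times. The array set block gave the same 12 h fold changes as leaving out EGF replicate 3 of 12 h, so these are not separate checks of them. Scaling moved the members' median at 12 h from 0.50 to 0.60 under median centring, with 28 members higher and 0 lower. Over all tested probe sets 3436 were then higher and 3091 lower at 12 h, against 2848 and 3882 in the main fit. At 4 h the members' median moved from 0.03 to 0.14 under median centring, or 0.01 under quantile normalization. The median of all tested probe sets at 4 h moved from -0.15 to -0.04 under median centring. Higher probe sets made up 42.3% of all calls at 12 h, 52.6% under median centring and 47.1% under quantile normalization, and 40.8%, 53.1% and 47.3% at 4 h. The 4 h count of 2 higher was 1 without an intensity trend or without both replicate 3 arrays of 4 h, 5 with the array set as a block and 1 to 3 with 1 array left out. The 4 h count of 1 lower was 2 with a stricter filter or averaged probe sets, 3 with separate fits or the set block and 1 to 3 with 1 array left out. The 12 h count of 0 lower was 2 with the set block (Psmf1 and Psmg4) and 0 to 1 with 1 array left out (Psmg4, without EGF replicate 3 of 12 h). The 7 differing members were 3 without a filter, 2 without a trend or without both replicate 3 arrays of 4 h, 20 with the set block and 2 to 15 with 1 array left out. With the replicate block, which leaves 4 residual degrees of freedom, 2 members were higher and 1 lower at 4 h and 24 higher at 12 h, among them all 23, and 7 differed between the times, with Psma1 and Psmd1 in place of Psma7 and Psmb4. No result changed direction while called. The cause of these shifts was not tested. Apart from the scalings and the shares given earlier, no share of all tested probe sets was taken in the alternatives. Counts of members from those fits thus have no background beside them. For arrays, signal near background limits only dim probe sets, and no member was dim.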
